A study of Mus musculus with 36 samples.

Results

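Methylation of CpG dinucleotides was measured across 8 genes for transcription factors of hepatocytes, Hnf4a, Foxa1, Foxa2, Foxa3, Cebpa, Cebpb, Onecut1 and Prox1, in the liver of 24 mice. Each locus was taken from 5 kb upstream of the gene start to 1 kb past the gene end in the mm9 annotation, and all CpGs of the deposited count tables inside it were used. The 8 loci held 4211 of 18887127 autosomal CpGs, and 289 of the 1456902 autosomal windows of 500 bp that could be tested. The genes are 8 of 21418 autosomal protein-coding genes of the annotation. The list names genes by their known role, and was set with earlier results of these data known.

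Whole-genome bisulfite sequencing was made on liver DNA of the mouse strain C57BL/6N, called B6 below, of the strain C3H/HeN, called C3, and of F1 animals of both reciprocal crosses. B6C3F1 animals had a B6 dam and a C3 sire, and C3B6F1 animals a C3 dam and a B6 sire. Each of these 4 kinds was represented by 3 males and 3 females, which makes 8 groups of 3 animals. The parents were mated at week 10, and every animal was killed at week 20. The B6 and C3 females were dams that had borne and nursed pups, and the B6 and C3 males were sires, while the F1 females were virgin. A difference between dams and virgin F1 females can therefore not be told apart from one between inbred and hybrid animals. No transgene or treatment is named for any group, and animals were not pooled. The paper states that each chosen family gave a sire, a dam, an F1 female and an F1 male. The dams were thus the mothers of the F1 females, and the sires the fathers of the F1 males. Kinship between animals was not modelled.

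Counts summed to between 365740739 and 619888157 per animal over the autosomes, or 19.4 to 32.8 reads per CpG, and 75.1% to 77.5% of them were methylated. Within the 8 loci the depth was lower and ranged from 7.38 reads per CpG, in Cebpb, to 32.7, in Hnf4a. The precision of a level is limited by these reads, and its spread over animals is given with it. The loci were richer in CpGs than the autosomes, with 12.3 CpGs per kb in Hnf4a to 48.0 in Cebpb against 7.64. Replicates are separate animals.

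Hepatocytes are specified and kept by a small network of transcription factors that bind each other's genes. HNF4A, encoded by Hnf4a, is a nuclear receptor that drives much of the hepatocyte programme, and its gene has 2 alternative promoters, of which the downstream one is the promoter of adult liver. The forkhead proteins encoded by Foxa1, Foxa2 and Foxa3 open chromatin at liver enhancers. C/EBP alpha and C/EBP beta, from the intronless genes Cebpa and Cebpb, act on metabolic and acute phase genes, HNF6, from Onecut1, acts in hepatocytes and bile ducts, and PROX1 is a homeodomain protein of hepatoblasts, hepatocytes and lymphatic vessels. CpGs at the start of active or developmentally regulated genes are mostly unmethylated, and CpGs within gene bodies mostly methylated. A level below is the percent of reads that were methylated at the CpGs of an interval, averaged over all cells of the tissue, so that a level of intermediate size cannot be assigned to a share of cells or to a share of copies within a cell.

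The bases just upstream of 5 of the start sites are printed here to show how unlike they are in CpG content. Sequences are from mm9, 5′ to 3′ on the strand of the gene, in lower case with each CpG in capitals, and each ends with the base before the start site.
Hnf4a, upstream start, chr2:163332424-163332543, plus strand: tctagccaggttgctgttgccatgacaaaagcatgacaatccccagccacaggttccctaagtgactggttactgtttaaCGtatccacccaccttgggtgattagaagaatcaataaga
Hnf4a, downstream start, chr2:163372803-163372922, plus strand: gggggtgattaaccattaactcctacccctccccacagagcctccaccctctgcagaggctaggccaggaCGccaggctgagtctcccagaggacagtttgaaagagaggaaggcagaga
Foxa1, chr12:58647109-58647228, minus strand: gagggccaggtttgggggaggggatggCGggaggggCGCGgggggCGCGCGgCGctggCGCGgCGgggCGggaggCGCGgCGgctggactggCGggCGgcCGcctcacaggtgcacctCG
Cebpa, chr7:35904192-35904311, plus strand: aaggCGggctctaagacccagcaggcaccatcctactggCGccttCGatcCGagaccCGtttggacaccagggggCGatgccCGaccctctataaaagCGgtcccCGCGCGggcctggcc
Prox1, chr1:191994560-191994679, minus strand: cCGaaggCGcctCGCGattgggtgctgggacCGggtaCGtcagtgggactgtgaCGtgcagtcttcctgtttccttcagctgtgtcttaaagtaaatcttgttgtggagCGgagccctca
Both Hnf4a stretches of 120 bases hold 1 CpG, that of Prox1 8, that of Cebpa 11 and that of Foxa1 18. From 250 bases before to 50 after the gene start, Hnf4a has 3 CpGs and the other genes have from 12 in Foxa2 to 50 in Cebpb, against a median of 12 over all genes. In this interval the letters TGTTTAC, bound by forkhead proteins, occur on either strand in Foxa1 and in 3.08% of all promoters. ATCAAT, an Onecut site, occurs in Hnf4a and Foxa2 and in 7.14% of all promoters. The HNF4 letters CAAAGTCCA, the Onecut letters ATCGAT, the C/EBP letters TTGCNNCAA and the palindromic HNF1 motif occur in 0 of the 8, and in 0.467%, 0.864%, 2% and 0.0327% of all promoters. A match of letters is not a bound site, and the downstream start of Hnf4a was not searched.

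The level within 500 bp of the gene start was below 5% in 7 of the 8 genes in every group. It was 0.307% ± 0.145 (SD, n = 24) in Cebpa, 0.400% ± 0.271 in Prox1, 0.410% ± 0.187 in Cebpb, 0.524% ± 0.20 in Foxa1, 0.687% ± 0.286 in Onecut1, 1.42% ± 0.578 in Foxa2 and 3.95% ± 1.10 in Foxa3. Cebpa, Prox1, Cebpb, Foxa1 and Onecut1, neighbours in this order, lay within 1 SD of each other. Hnf4a stood apart with 27.9% ± 4.16 at its annotated gene start, over 16 CpGs, and with 20.1% ± 4.63 over 24 CpGs at the downstream start, 40379 bp further on, where transcript Hnf4a-001 begins. At the start between them, that of Hnf4a-202, the level was 65.3% ± 3.97 over 9 CpGs. None of these Hnf4a starts was below 10% in its mean, in contrast to the other 7 genes.

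No difference at an annotated gene start passed the test. In limma over 19184 gene starts, 0 of the 8 members passed a Benjamini-Hochberg adjusted p of 0.05 in any of the 9 comparisons described below, and the smallest adjusted p was 0.323, in sires against dams, where 0.48% of all gene starts passed. In the strain comparison 9.66% of all gene starts passed and the smallest member p was 0.351. A miss of the threshold does not show equal levels. At the Hnf4a start the sires had 31.2% ± 3.13 and the dams 25.3% ± 3.11. The downstream start of Hnf4a was not among the gene starts tested. Its mean level was 24.95% in B6 males and 18.9% in B6 females, 19% and 15.8% in C3, 20.4% and 17.0% in B6C3F1, and 26.2% and 18.7% in C3B6F1, higher in the males of each. Of the windows tested there, the one with 18 CpGs just past the Hnf4a-001 start was 6.02 points higher in sires than in dams and 4.73 points higher in F1 males than in F1 females, and neither difference passed, with limma adjusted p of 0.315 and 0.76.

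The starts of the 8 genes lay in long unmethylated spans, apart from Hnf4a. A span was the run of CpGs around the gene start over which the weighted level of 5 neighbouring CpGs stayed below 25%. A run was followed past the edge of the locus where it reached further, as in Foxa1, Cebpa, Cebpb and Prox1. In the summed counts of the 24 animals it was 10552 bp with 439 CpGs in Foxa1, 8588 bp with 327 CpGs in Prox1, 7709 bp with 316 CpGs in Onecut1 and 7496 bp with 345 CpGs in Cebpa. It was 5498 bp with 336 CpGs in Cebpb, 5199 bp with 191 CpGs in Foxa3, 3822 bp with 219 CpGs in Foxa2, and 195 bp with 7 CpGs in Hnf4a. Of all protein-coding genes 64.4% had a span, with a median of 1487 bp among those that had one, so 7 of the 8 members lay above the 95th percentile of 3242 bp and 4 above the 99th of 5972 bp. These lengths are descriptions without a test.

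Span and gene differed in how they lay together. The spans of Foxa1, Cebpa and Cebpb covered the whole gene, with 9496 bp downstream of the start in Foxa1 and 1055 bp upstream of it. The Cebpa span ran from 3001 bp upstream to 4494 bp downstream. The Foxa2 span covered 82.8% of the gene, and a second low run of 1881 bp with 65 CpGs, at a level of 3.59%, lay upstream of the start. Another run of 4556 bp with 160 CpGs and 2.90% lay beyond the end of Foxa2. In Prox1 the span covered 7.33% of the gene and reached 5005 bp upstream, the whole upstream part of the locus, while in Onecut1 it reached 7081 bp into the gene and 627 bp upstream. Foxa3 had 32.2% of its length in its span, and a further low run of 996 bp with 46 CpGs at 4.53% past its end.

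**Figure D1:**
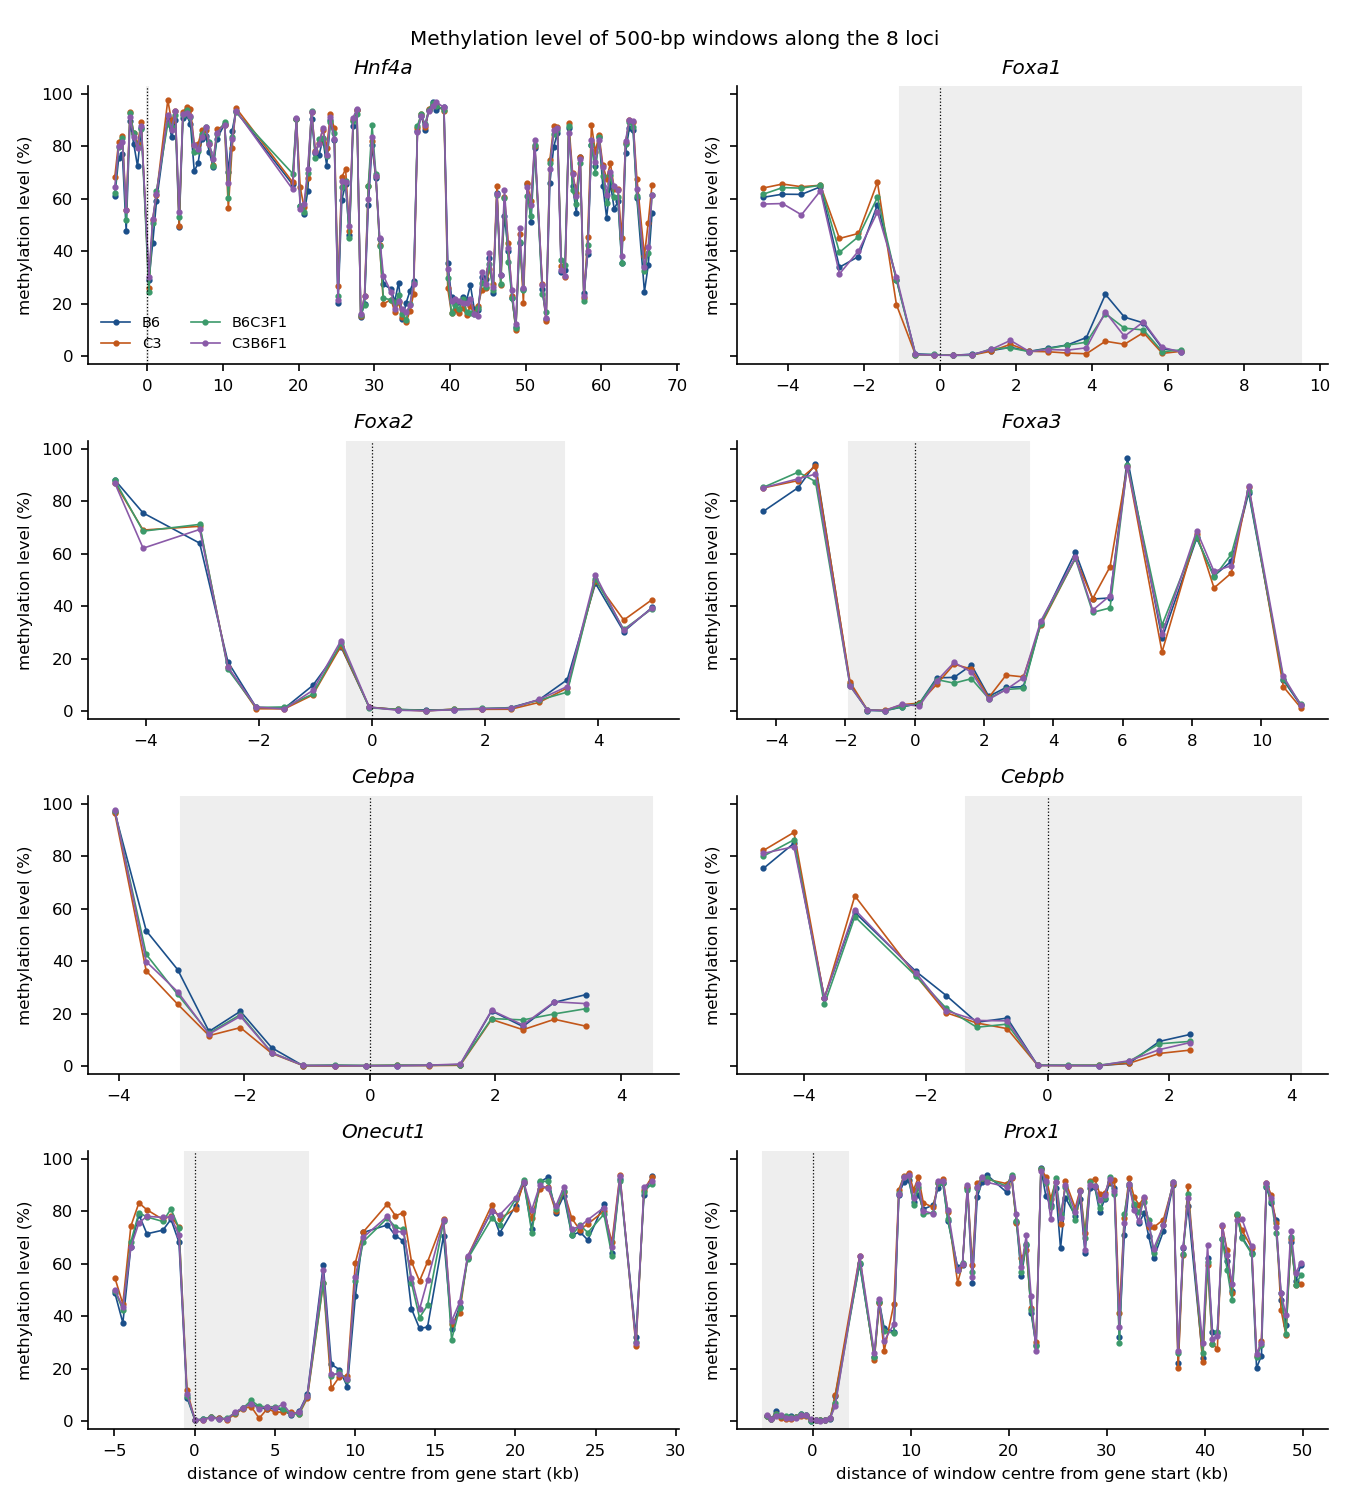
Methylation level (percent, y axis) of 500-bp windows with at least 3 CpGs against the distance of the window centre from the gene start (kb, x axis, positive in the direction of transcription), as means of 6 animals for each of B6, C3, B6C3F1 and C3B6F1, with the unmethylated span in grey. The 4 lines lie close together, the levels fall below 5% around every start but that of Hnf4a, and the lines part in Foxa1 near 4 kb and in Onecut1 near 14 kb.

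The longest low run of Hnf4a lay in the middle of the gene and not at its annotated start. Its locus held 10 low runs, the longest of which had 4221 bp and 69 CpGs at chr2:163372436-163376656, with a level of 19.1% that ranged from 14.3% to 24.03% over animals. This run holds the starts of 4 transcripts, among them Hnf4a-001, and lies far from the annotated gene start, so it was not counted as the span. In the intron upstream of it were runs of 1616 bp at 21.0% and of 1911 bp at 18.5%. Runs of lower level were short: 485 bp with 21 CpGs at 5.18%, and 148 bp with 6 CpGs at 5.19%. Of 96 tested Hnf4a windows 0 were below 10% in the summed counts, 35 between 10% and 50%, and 61 at 50% or more. By comparison 12 of 20 Foxa1, 11 of 15 Foxa2, 7 of 12 Cebpa, 6 of 12 Cebpb, 14 of 41 Onecut1, 14 of 74 Prox1 and 6 of 19 Foxa3 windows were below 10%.

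Span length varied over animals, least in Onecut1 among the genes with a long span. In Onecut1 it ran from 7650 to 8518 bp with a median of 7756 bp, and in Prox1 from 7498 to 10281 bp with a median of 8588 bp. In Foxa1 the lengths lay far apart. The 3 B6 females had short spans of 5301, 5329 and 5552 bp, and the 3 B6 males had 5329, 10594 and 10640 bp. All 6 C3 animals, of both sexes, lay between 9122 and 10768 bp. Among the 12 F1 animals a single one, B6C3F1 male 3, had a short span, with 5499 bp. The break lay where the level of B6 animals rose inside the gene, which is described below. In Cebpa the B6 animals ranged from 4040 to 6406 bp and the C3 animals from 5451 to 8129 bp, with medians of 5011 and 7473 bp, so that the strains overlapped. The Hnf4a span of 7 CpGs was found in 17 animals and missing in 7. A span ends at a threshold. With a limit of 10% in place of 25% it was 5237 bp in Foxa1 and 3286 bp in Cebpa. In Cebpb, Foxa3 and Foxa2 it was then 2830, 2316 and 3236 bp. In Onecut1, Prox1 and Hnf4a it was 7320, 7458 and 0 bp. The spans of all genes were not computed with this limit.

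**Figure D2:**
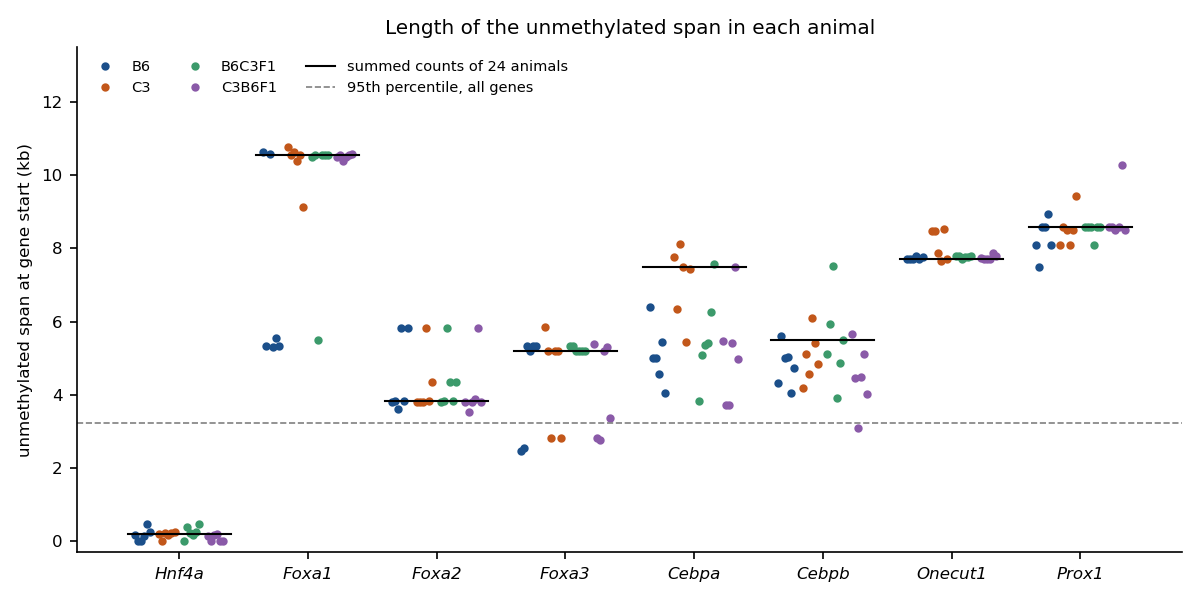
Length of the unmethylated span at the gene start (kb, y axis) in each of the 24 animals, by gene (x axis) and by strain or cross (colour), with the span in the summed counts as a black line and the 95th percentile of all genes as a dashed line at 3.24 kb. Hnf4a lies under 0.5 kb in every animal, and Foxa1 has animals near 5.3 kb and near 10.6 kb, with 1 C3 female at 9.12 kb.

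The gene-body level, from gene start to gene end, was lowest in the 4 genes whose span covered most or all of the gene. It was 0.493% ± 0.222 (SD, n = 24) in Cebpb, 2.14% ± 0.695 in Cebpa, 2.57% ± 0.562 in Foxa2 and 3.01% ± 0.877 in Foxa1, and among the last 3 the neighbours lay within 1 SD of each other. It was 29.3% ± 2.30 in Onecut1, 33.7% ± 2.88 in Foxa3, 56.8% ± 1.43 in Hnf4a and 62.9% ± 1.55 in Prox1. The median over all genes was 74.9%, and all 8 members lay below it. Outside the span, the rest of the body was at 60.1% ± 1.76 in Onecut1, 52.3% ± 4.57 in Foxa3, 57.0% ± 1.44 in Hnf4a and 70.4% ± 1.32 in Prox1. The 5 kb upstream of the start ranged from 1.71% ± 0.353 in Prox1 to 75.6% ± 2.36 in Hnf4a.

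**Figure D3:**
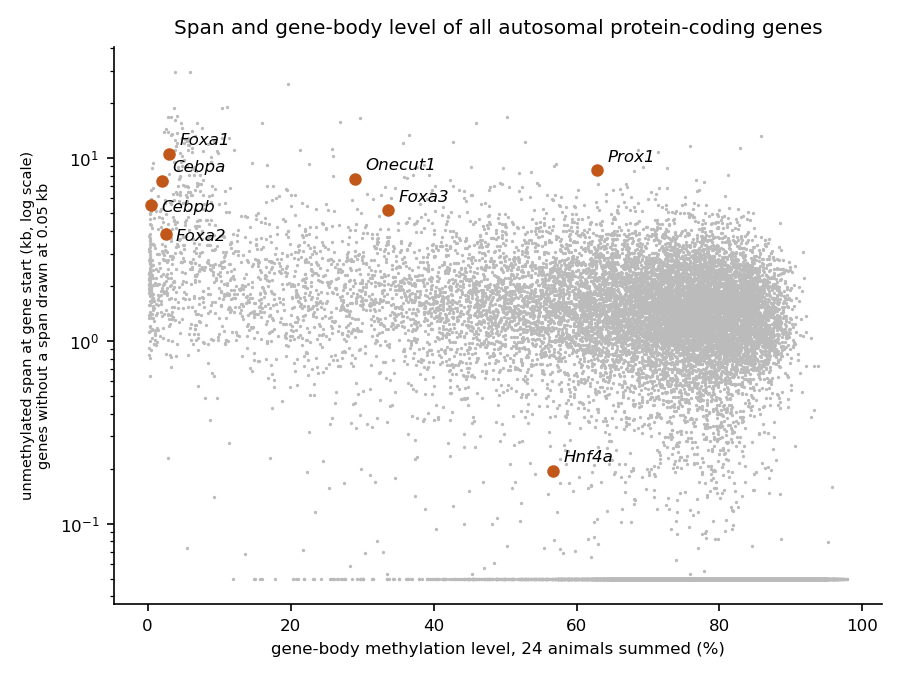
Unmethylated span at the gene start (kb, log scale, y axis) against the gene-body methylation level (percent, x axis) of autosomal protein-coding genes in the summed counts of the 24 animals, as grey points, with the 8 members in orange. Foxa1, Cebpa, Cebpb and Foxa2 lie at body levels below 4% with spans above 3.8 kb, Prox1 combines a span of 8.59 kb with a body level of 62.8%, and Hnf4a lies low with 0.195 kb.

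Other gene groups give the scale. For 8 genes of liver products, the secreted proteins Alb, Apoa1, Apob, Serpina1a, Fgb and Hamp and the enzymes Tat and Cps1, the median span was 507 bp and 3 had none, against 6497 bp for the members and 1000 bp for all genes. Fgb with 4078 bp and Tat with 3482 bp were the 2 liver products above the 95th percentile of all genes. The median start level was 23.9% in the liver products and 0.599% in the members. The start level of Cps1 rests on 4 CpGs, under the minimum of 5, and is not in its median. Spans above the 95th percentile of all genes were also found in regulators of the development of other organs, with 25491 bp in Pax6, 13506 bp in Nkx2-1, 8420 bp in Pax2, 6956 bp in Tbx5, 5253 bp in Nkx2-5 and 4039 bp in Irx3, while that of Lhx2, 2339 bp, lay below it. None of these values was tested against those of the members. Of 24 further genes for liver transcription factors 23 had a protein-coding entry. A span above the 95th percentile of all genes was found in 10 of them. Over the 23 genes the median span was 2994 bp and the median body level 51.9%. Among them Foxm1 and Nr1h3 had the highest body levels with 83.4% and 65.1%, and Hhex and Nr2f2, at 13.01% and 13.07%, the lowest. Onecut2, a paralog of Onecut1, had a span of 8267 bp.

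The profiles of 20 windows of 500 bp around the gene start were compared with those of all other genes by the root mean square difference. Among the genes most like Prox1 were Lhx8 and Olig2, with differences of 8.05 and 8.43 percentage points, and the gene most like Cebpa was Foxc2, with 10.1 points. Foxa1 was nearest to Sox21 at 11 points, Igfbp5 and Pcdh17. Foxa2 was nearest to Nrn1, Sall1 and Sema6a, Foxa3 to Emx1, Dusp6 and Fgfr2, Cebpb to Sin3a, Errfi1 and Tbx3, and Onecut1 to Gm53, Fgf9 and Tmbim6. After Foxc2, Egr3 and Slc38a3 were the next for Cebpa. Hnf4a, with 12.0 points to Agbl4 as the nearest, was followed by Vmn1r5 and Gm17365, genes with spans of 361, 0 and 0 bp.

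B6 and C3 parents differed at 1 window past both thresholds, in an intron of Onecut1. Windows were compared by limma on the log2 ratio of methylated to unmethylated reads, with adjusted p over all windows, and called where the adjusted p was below 0.05 and the levels differed by at least 20 percentage points. Of 289 member windows 1 was called, or 0.346%, against 0.494% of all windows. At the adjusted p alone 40 member windows passed, or 13.8%, against 6.63% of all windows. Of these 40, 28 were lower in B6 and 12 higher, and over all windows 4.29% were lower and 2.34% higher. Hnf4a held 19 of the 40, Prox1 8, Foxa1 and Onecut1 5 each, Cebpa 2, Cebpb 1, and Foxa2 and Foxa3 none, with smallest adjusted p of 0.0713 and 0.195. The windows of a gene are neighbours and are not independent.

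The Onecut1 window, chr9:74724001-74724500, lies 14.5 kb past the gene start, and 6 of its 7 CpGs fall in the stretch printed here in plus strand orientation, which is also that of the gene.
Onecut1 intron, chr9:74724106-74724400: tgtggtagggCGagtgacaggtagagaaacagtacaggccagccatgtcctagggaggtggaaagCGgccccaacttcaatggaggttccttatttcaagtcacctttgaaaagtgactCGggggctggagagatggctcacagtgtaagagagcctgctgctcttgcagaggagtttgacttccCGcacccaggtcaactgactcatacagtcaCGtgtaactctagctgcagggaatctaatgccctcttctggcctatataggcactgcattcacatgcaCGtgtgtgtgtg
The 6 B6 parents had levels of 27.5% to 43.8% with a median of 35.2%, and the 6 C3 parents 54.7% to 64.3% with a median of 61.5%, and the strains did not overlap. The difference was 24.8 points (B6 35.9% ± 5.53, C3 60.7% ± 3.71, SD, n = 6 each), with a log2 ratio difference of -1.45 ± 0.16 (SE) and a limma adjusted p of 4.65e-08. The means of both crosses lay between those of the strains, at 44.1% ± 2.63 in B6C3F1 and 53.7% ± 7.05 in C3B6F1. Single animals, at 40.7% to 46.7% in B6C3F1 and 45.4% to 63.8% in C3B6F1, overlapped B6 and C3 respectively. The 2 crosses differed by 9.54 points, with an adjusted p of 0.537 that did not pass. By CpG the difference was not even: the first CpG of the stretch had 19.1% in B6 and 19.3% in C3, and the fourth, at position 74724291, 20.2% and 78.1% over 109 and 105 reads. The sixth had only 37 and 13 reads. In windows shifted by 250 bp the call was lost: in the window that begins at 74723751 the difference was 17.9 points, with an adjusted p of 2.33e-06. The CpGs from 74724291 on lie past the end of that window. They fell in a shifted window with too few CpGs to be tested.

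No SNV between the strains lay in this Onecut1 window, and the nearest to any of its CpGs was 77 bp away. The whole Onecut1 locus held 64 SNVs, or 1.89 per kb, Foxa3 41, Prox1 66, Foxa1 18, Foxa2 5 and Hnf4a 1, and Cebpa and Cebpb had 0, against 1.14 per kb over all autosomes. Hnf4a, with 0.0139 SNVs per kb, nonetheless had 19 windows past the adjusted p. The part of sequence differences in any of these was not tested.

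In Foxa1 the B6 parents had more methylation inside the unmethylated span. At chr12:58642001-58642500, in the untranslated part of the last exon, the B6 parents had 8.94% to 23.1% and the C3 parents 1.89% to 6.92%, without overlap. The means were 15.0% ± 4.84 and 4.64% ± 1.65, with a log2 ratio difference of 1.79 ± 0.23 and a limma adjusted p of 1.47e-06. At chr12:58643001-58643500, with 28 CpGs in coding sequence, they had 7.22% ± 2.24 and 1.03% ± 0.597, which is 2.78 ± 0.33 on the log2 ratio scale, with an adjusted p of 3.31e-07. The 40 CpGs from the first of these windows to the end of the second include those of the untested window between them. Of these 40, 1 was lower in B6 and 3 were higher by at least 20 points. The window differences of 10.3 and 6.19 points were below 20 points, so neither window was called. The F1 means lay between at 10.8% ± 2.35 in B6C3F1 and 7.67% ± 1.05 in C3B6F1 in the first of the windows. Upstream of Foxa1, 2 windows centred at -2143 and -2643 bp from the start were 8.80 and 10.95 points lower in B6, while the window at -1143 bp, with 29.3% in B6 and 19.7% in C3, did not pass the adjusted p.

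**Figure D4:**
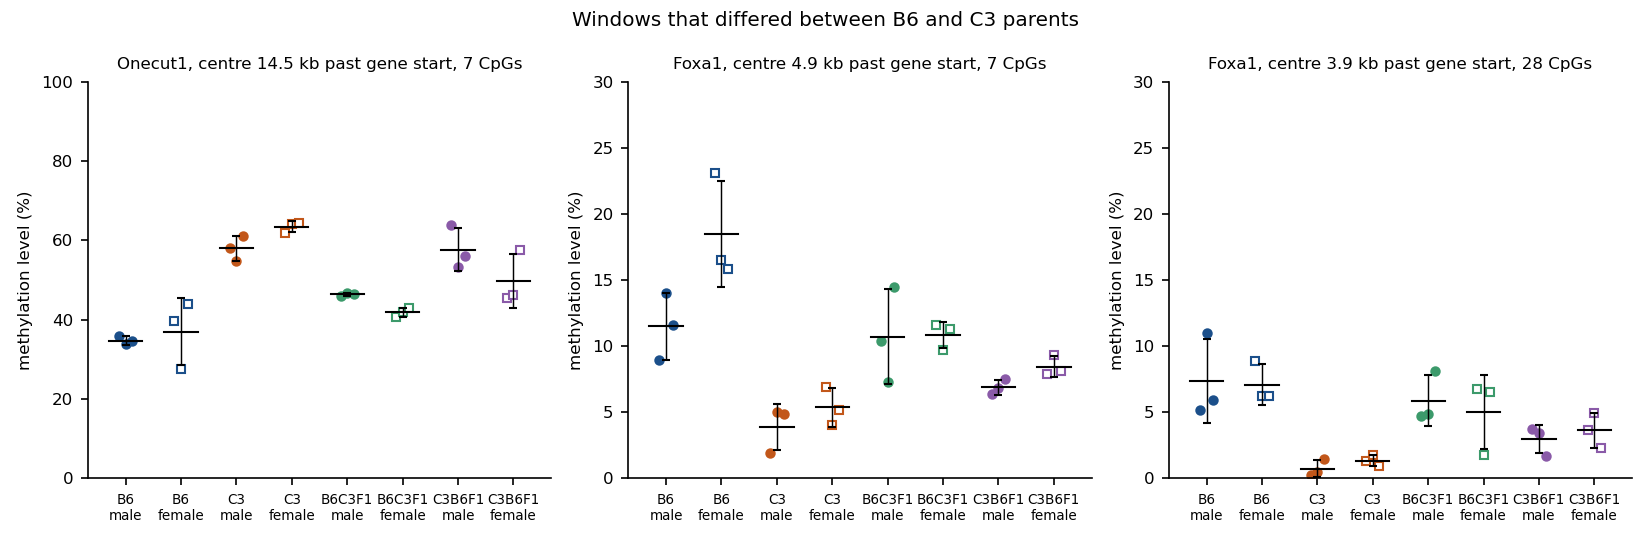
Methylation level (percent, y axis) of the called Onecut1 window and of 2 Foxa1 windows in the 3 males (filled circles) and 3 females (open squares) of each group (x axis), with mean (long bar) and SD (error bar), and with a y axis to 100% for Onecut1 and to 30% for Foxa1. In all 3 windows the 6 B6 and the 6 C3 parents are separated and the F1 means lie between theirs, with single F1 animals inside the range of a parent strain.

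In no other tested member window did a strain difference reach 20 points with a passing adjusted p. At the edges of the Cebpa span B6 was higher, by 13.2 points at -3061 bp from the start (36.8% ± 6.42 against 23.7% ± 5.27) and by 12 points at 3439 bp, and 1 window past the end of Cebpb was higher in B6 by 5.95 points. In Hnf4a 15 of 19 windows were lower in B6, and the largest difference was in the other direction, 13.8 points higher in B6 at 10707 bp past the start. The Hnf4a window at the edge of the run over the downstream start, at 39707 bp, had 35.6% ± 4.496 in B6 and 25.9% ± 2.65 in C3. In Prox1 7 of 8 windows were lower in B6, by up to 9.03 points, all past the start and outside the span. As a whole body, Foxa1 had 3.98% ± 0.562 in B6 and 1.85% ± 0.317 in C3, with a limma adjusted p of 1.93e-06 over 20454 genes, and Prox1 62.0% ± 0.897 and 63.9% ± 1.68, with 0.0422. The adjusted p of Prox1 rose to as much as 0.115, and the call was lost in 10 of 24 fits that left out an animal. Of all gene bodies 27.6% passed.

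Sires and dams differed in an intron of Foxa3, where males were lower. Of 289 member windows 1 was called, against 0.104% of all windows, and 5 passed the adjusted p alone, or 1.73%, against 0.974%. All 5 were lower in sires, as were 0.512% of all windows: 3 in Foxa3, 1 in Hnf4a and 1 in Prox1. The called window is chr7:19603501-19604000, 5136 bp past the Foxa3 start in the direction of transcription. A stretch of the neighbouring window, which shares the difference, is shown on the plus strand, opposite to the strand of Foxa3.
Foxa3 intron, chr7:19604092-19604149: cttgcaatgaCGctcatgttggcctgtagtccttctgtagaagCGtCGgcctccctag
This stretch holds 3 CpGs and no SNV between the strains.

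In the called Foxa3 window the 6 sires had 21.4%, a median of 29.5% and at most 33.6%, and the 6 dams had 48.3%, a median of 58.5% and at most 60.0%. The sexes did not overlap. The means were 29.0% ± 4.51 in sires and 56.7% ± 4.48 in dams, a difference of 27.7 points, with a log2 ratio difference of -1.65 ± 0.17 and a limma adjusted p of 5.84e-08. Within B6 the 3 sires had 33.1%, 27.1% and 33.6% and the 3 dams 59.3%, 55.2% and 48.3%, with an adjusted p of 0.00201. Within C3 the 3 sires had 21.4%, 28.6% and 30.4% and the 3 dams 59.6%, 57.8% and 60.0%, with 5.64e-06. In windows shifted by 250 bp the Foxa3 difference within B6 was 27.5 points and no longer passed, with an adjusted p of 0.0932. The difference was 23 points in B6 and 32.3 points in C3, and the test of the difference between them gave a limma adjusted p of 0.944. Within B6 2 member windows passed the adjusted p and were called, against 0.264% and 0.0997% of all windows, and within C3 4 passed and 1 was called, against 0.525% and 0.154%.

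In F1 animals, whose females had borne no pups, males were also lower. F1 males had 20.0% to 32.0% with a median of 26.8%, and virgin F1 females 45.1% to 53.5% with a median of 50.6%, in the same Foxa3 window. The difference was 24.1 points (26.1% ± 4.76 against 50.2% ± 2.92), with a log2 ratio difference of -1.50 ± 0.17 and a limma adjusted p of 9.99e-07. Over all 24 animals the 12 males ended at 33.6% and the 12 females began at 45.1%. Dams were 6.503 points above virgin F1 females, with an adjusted p of 0.585 that did not pass, and sires 2.98 points above F1 males, with 0.897. These comparisons use the same animals as those above. Of the 289 member windows 2 were called between F1 males and F1 females, both in Foxa3, against 0.051% of all windows, and 5 passed the adjusted p alone, all lower in males, against 0.343% of all windows, of which 0.292% were lower in males.

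The next Foxa3 window, chr7:19604001-19604500, was called in F1 animals and within B6. F1 males had 38.1% to 56.8% and virgin F1 females 66.7% to 75.4%, with means of 45.9% ± 8.21 and 71.0% ± 3.50 and a limma adjusted p of 0.000137. Sires and dams had 49.9% ± 8.97 and 69.0% ± 6.71, 19.1 points apart, and overlapped, with an adjusted p of 0.00263. Within B6 the difference was 23.6 points, with 0.0243. Neither of the shifted windows that overlap it could be tested. Within B6 it no longer passed both thresholds without B6 male 2, B6 male 3 or B6 female 1, with differences of 22.5, 19.9 and 19.1 points. A window 3636 bp past the start, just outside the span, was 11.9 points lower in sires and 12.1 points lower in F1 males.

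On the far side, chr7:19603001-19603500 had only 4 CpGs and was tested only where windows of at least 3 CpGs were admitted. Sires and dams differed there by 44.3 points, sires at 27% ± 6.73 and dams at 71.3% ± 10.7, with a limma adjusted p of 3.17e-08. The F1 animals were 34.1 points apart, at 24.7% ± 8.75 and 58.8% ± 8.15, with 8.05e-06. The 12 males had 10.96% to 37.6% and the 12 females 46.0% to 83.5%, without overlap.

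By single CpG, the difference was shared by most CpGs of these 3 windows, which were chosen because they differed between the sexes. Of 17 CpGs from position 19603164 to 19604473, 16 were lower in the summed counts of the 12 males than of the 12 females, and 11 of them by at least 20 points. The largest differences were 54.6 points at 19603638 (26.98% of 126 reads against 81.6% of 147) and 52.8 points at 19603261 (23.1% of 260 reads against 75.9% of 311). From 19604367 on, the last 3 CpGs differed by 7.51 points or less. Adjacent CpGs differed in level, as at 19603583, with 20.1% in males and 29.4% in females. An SNV between the strains lies 2 bp from the CpG at 19603181, and the CpG at 19603638 is 74 bp from the nearest SNV. Depth in the called window was lower in C3 parents, with 11.2 reads per CpG, than in B6 parents, with 21.8, and was 17.0 in the 12 males and 17.2 in the 12 females.

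**Figure D5:**
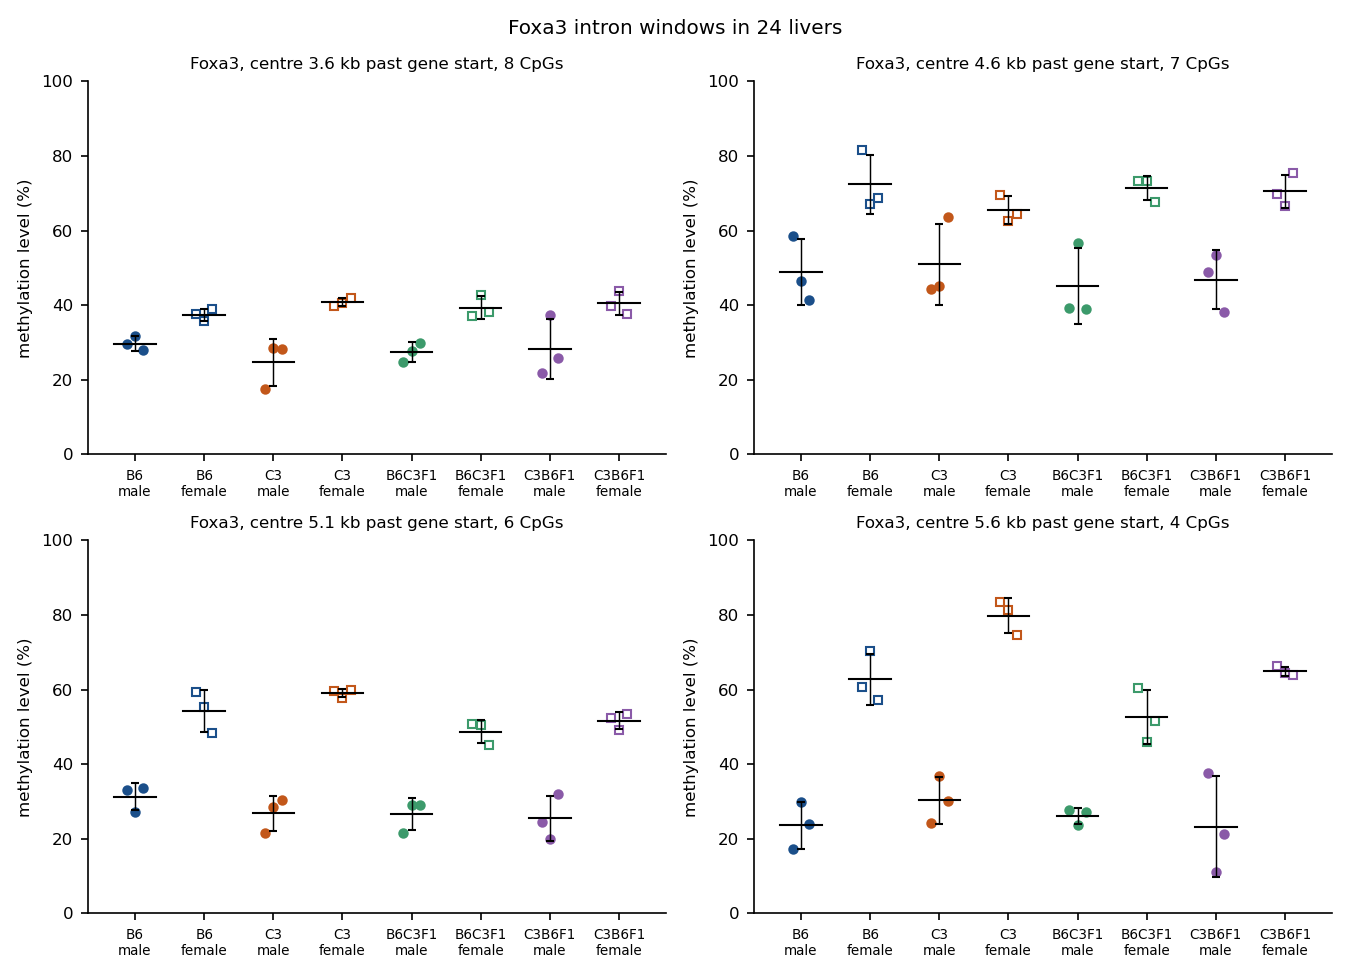
Methylation level (percent, y axis) of 4 windows of a Foxa3 intron, ordered by distance past the gene start, in the 3 males (filled circles) and 3 females (open squares) of each of the 8 groups (x axis), with mean (long bar) and SD (error bar). At 5.1 kb the males lie between 20.0% and 33.6% and the females between 45.1% and 60.0%, and the separation is present in both strains and both crosses.

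The Foxa3 body as a whole was lower in males between sires and dams, within C3 and in F1 animals. It was 31.3% ± 2.12 in sires and 35.0% ± 2.76 in dams, with a limma adjusted p of 0.0137, and 32.0% ± 1.81 and 36.5% ± 1.03 in F1 males and virgin F1 females, with 0.0254. The F1 call was lost in 7 of 24 fits that left out an animal, with an adjusted p of up to 0.0911. Within C3 the body was 30.0% ± 2.09 in sires and 37.4% ± 1.38 in dams, with 0.00336, and within B6 32.7% ± 1.21 and 32.7% ± 0.808, with 0.996. The test of that difference between the strains gave an unadjusted p of 0.000895 and an adjusted p of 0.259, which did not pass. The other 7 members did not pass between sires and dams or between F1 males and F1 females, against 11.3% and 0.636% of all gene bodies. Within B6 6.24% and within C3 4.65% of all gene bodies passed. The start of Foxa3 was 4.56% in B6 sires and 3.44% in B6 dams, 3.99% in C3 sires and 4.64% in C3 dams, and passed in no comparison.

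Of the other tested windows of the members, those past the adjusted p in a comparison of the sexes differed by less than 20 points. In windows shifted by 250 bp a Cebpa window was 20.4 points lower in C3 sires than in C3 dams, with a limma adjusted p of 0.00807. The Prox1 window centred 47308 bp past the start had 71.6% ± 4.97 in sires and 80.6% ± 1.48 in dams, with a limma adjusted p of 0.00378. Another Prox1 window, 22308 bp past the start, was 14.7 points lower in C3 sires than C3 dams and 11.7 points lower in F1 males than F1 females. A Hnf4a window 6707 bp past the start was 7.99 points lower in sires. No window of Foxa1, Foxa2, Cebpa, Cebpb or Onecut1 passed the adjusted p in sires against dams or in F1 males against F1 females.

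In the remaining comparisons 0 member windows passed a limma adjusted p of 0.05. For the interaction of strain and sex 20 of 289, or 6.92%, had an unadjusted p below 0.05, against 5.42% of all windows, and for dams against virgin F1 females 32, or 11.1%, against 7.94%. For sires against F1 males it was 20, or 6.92%, against 6.26%, and for B6C3F1 against C3B6F1 27, or 9.34%, against 6.69%. Of all windows 0.00178%, 0.181%, 0.0143% and 0.00192% passed the adjusted p in these comparisons, and 0.00151%, 0.0198%, 0.00227% and 0.000686% were called. For the interaction the smallest member p was in Foxa3, 3136 bp past the start, where the difference of sires from dams was 12.0 points higher in B6 than in C3, with an adjusted p of 0.731. For sires against F1 males it was in Foxa3, 7136 bp past the start, with 24.8% ± 7.13 and 32.5% ± 6.72 and an adjusted p of 0.583. The smallest member p between dams and virgin F1 females was in Hnf4a, 29707 bp past the start, with 79.4% ± 2.35 and 87.4% ± 4.64 and an adjusted p of 0.097. Between the reciprocal crosses it was at -3643 bp from the start of Foxa1, with 64.1% ± 3.94 in B6C3F1 and 53.9% ± 3.87 in C3B6F1 and an adjusted p of 0.5.

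The forkhead, HNF4 and HNF1 letters and ATCGAT occurred on neither strand of the 3 Foxa3 windows or the Onecut1 window. ATCAAT occurred 3 times in the Foxa3 window that begins at 19603001 and in no other of the 4, and in 17.1% of all windows with at least 5 CpGs.

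Called windows were also found in the further liver transcription factor genes. Of their 1102 tested windows 109, or 9.89%, passed the adjusted p between B6 and C3 parents and 8, or 0.726%, were called, against 6.63% and 0.494% of all windows. Of the 8, 5 were in Ppara, the receptor for fatty acids, with a window 52338 bp past its start at 41.4% ± 3.50 in B6 and 92.5% ± 1.27 in C3 and another at 26338 bp with 69.8% ± 5.26 and 17.9% ± 7.50. The xenobiotic receptors Nr1i2 and Nr1i3 held 1 and 2. Between sires and dams 2 of 1102 were called, against 0.104% of all windows, in introns of Nr5a2 and Gata6, and both were lower in sires: 56.4% ± 11.4 against 93.1% ± 4.09 in Nr5a2, and 60.2% ± 6.01 against 80.5% ± 2.04 in Gata6. The Nr5a2 window was also 22.5 points lower in F1 males.

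Marker genes of liver cell types were read at their starts. Within 500 bp of their starts, 8 hepatocyte genes had levels of 16.9% to 58.8%, 4 leukocyte genes 75.4% to 88.5% and 3 genes of Kupffer cells, the macrophages of the liver, 76.6% to 87.9%. The lowest Kupffer level is that of Cd5l and rests on 2 CpGs, and that of the hepatocyte gene Cps1 on 4, both under the minimum of 5. The endothelial genes ranged from 2.24% in Kdr to 74.4% in Cdh5, the cholangiocyte genes from 0.677% in Sox9 to 68.7% in Krt19, and the stellate cell genes from 2.16% to 23.6%. Over the lists, the mean in the 12 males and the 12 females was 26.9% ± 3.40 and 26.4% ± 4.06 for hepatocytes, 84.3% ± 2.07 and 83.7% ± 1.63 for leukocytes, and 82.8% ± 2.07 and 82.2% ± 2.14 for Kupffer cells. It was 50.1% ± 2.18 and 50.3% ± 1.68 for endothelial cells, 30.7% ± 1.44 and 30.7% ± 1.75 for cholangiocytes, and 14.3% ± 1.26 and 14.8% ± 1.99 for stellate cells. Between B6 and C3 parents it was 28.4% ± 3.71 and 23.6% ± 1.59 for hepatocytes, 82.4% ± 1.66 and 85.4% ± 0.844 for leukocytes, and 82.3% ± 2.295 and 82.4% ± 2.65 for Kupffer cells. For endothelial cells it was 49.1% ± 1.15 and 51.6% ± 1.76, for cholangiocytes 30.0% ± 1.13 and 32.0% ± 1.62, and for stellate cells 13.6% ± 1.14 and 15.6% ± 2.08. The part of these values in the strain differences was not tested.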

How the data were processed

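Methylated and unmethylated read counts per CpG, as deposited by the authors, were used for the 24 bisulfite-sequenced livers; the authors' FOXA1 ChIP and input samples were not analysed here. The authors filtered reads on base quality, aligned them to mm9 and phage lambda with Bismark 0.7.8 on Bowtie 0.12.8, removed duplicates, clipped read ends, counted overlapping mates once and joined each animal's libraries; the submitters' processing notes also name CASAVA 1.8.2 and Picard 1.110. CpGs were kept by the authors only where mm9 and both strains hold the dinucleotide, so a CpG present in 1 strain only cannot appear. The deposited list of bases that differ between the strains gave the SNVs.

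Counts were summed in windows of 500 bp, gene bodies and gene starts of the GENCODE mm9 annotation, on autosomes only. Windows of at least 5 CpGs and 30 reads in every animal were fitted with limma 3.58.1 in R 4.3.3 on log2((methylated + 1)/(unmethylated + 1)), with the means of the 8 groups and trended, robust variances. P-values, all two-sided, were adjusted by the Benjamini-Hochberg method over all autosomal windows or genes, and a window was called at an adjusted p below 0.05 and 20 percentage points. Groups were taken from the labels. The study's DSS and Metilene were not run. On simulated data for chromosome 19, with 42678 windows, recovery was counted at the adjusted p alone. In the strain comparison 100% of 100 windows changed by 20 points passed, as did 14 unchanged windows. The changed windows had intermediate levels, so recovery at low levels was not examined. The same spread between animals, matched to the median variance, was simulated for all windows, so recovery in more variable windows was not examined either.

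All called member windows are named, with the member window of smallest p where none was called, the 3 genes with the most similar profile except where not reported, and, of the wider list, the genes with most called windows and with the extreme body levels. Other windows and genes were named after their values were seen. The members, lists and tests were chosen with earlier results of these data known. Alternatives were the pseudocount, the read and CpG minimum, the scale, the size of difference, shifted windows, variances, a replicate block, each animal left out, the limits of body and start, and the span limit. Read counts cover counting error only, and numpy 2.4.6 and pandas 2.3.3 were used for sums. Some compared genes and sequences are not reported here.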

Additional observations from a re-analysis of the deposited data

Results flagged for a closer look

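Of 124 groups of 6 animals, 10 held an animal that stood apart from the other 5 by its gap relative to the group's range. The rule nominally marks about 1 in 20 groups by chance, which was not checked here. Of these 10, 9 concern span lengths, which move in steps when a threshold is crossed, so the nominal rate need not hold for them. Among C3 animals, male 2 had a Hnf4a span of 0 bp, female 3 a Foxa1 span of 9122 bp and a Prox1 span of 9423 bp, and female 1 a Foxa2 span of 5834 bp and a Cebpb body level of 0.186%. Among B6C3F1 animals, male 3 had a Foxa1 span of 5499 bp and a Foxa2 span of 5834 bp, and female 1 a Prox1 span of 8105 bp. Among C3B6F1 animals, female 2 had a Foxa2 span of 5834 bp and a Prox1 span of 10281 bp. The Foxa2 value of 5834 bp is the same in these 3 animals, and was also the longest among B6 females. It equals the length from the gene-side end of the Foxa2 span to the far end of the low run upstream. In summed counts the Foxa2 span was 5834 bp in B6 females and in C3 females, and 5819 bp in C3B6F1 females. In the other groups it was 3807 to 3822 bp. The window over the gap between the span and that run, centred at -546 bp from the start, had 25.5% over all animals, near the limit of 25%. No Foxa2 window passed between sires and dams, with a smallest limma adjusted p of 0.315.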

How the results depend on the processing

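No result reversed its direction under any alternative that was run. With a difference of at least 10 points the calls were 9 for strain, 3 for sires and dams, 4 within C3 and 5 in F1 animals, against 2.39%, 0.573%, 0.442% and 0.255% of all windows. With at least 100 reads in every animal they were 0 for strain, sires and dams, within B6, within C3 and in F1 animals, since 195 member windows were then tested and 0 of the 3 called ones. With windows shifted by 250 bp 292 member windows were tested. The calls were 0 for strain, 1 in F1 animals and 2 within C3, with a Cebpa window 20.4 points lower in C3 sires as the second. Within B6 they were 0, where Foxa3 differed by 27.5 points with an adjusted p of 0.0932 by limma. The shares of all shifted windows called are not given here. With at least 3 CpGs 351 member windows were tested, and the calls were 2 for sires and dams, 3 within B6, 3 within C3 and 3 in F1 animals. The shares of all windows called with this minimum are not given here, and those of the main fit do not apply. With bodies from 1 kb past the start 2 members passed between sires and dams, the second being Prox1, with an adjusted p of 0.0429 by limma. The share of all bodies that passed with this limit is not given here. Without each animal in turn the calls ranged from 1 to 2 for sires and dams, from 1 to 2 within B6, from 1 to 2 for bodies by strain and from 0 to 1 for bodies in F1 animals; the second call for sires and dams appeared without B6 male 1, B6 female 2, B6 female 3 or C3 male 3. The median span of the members was 3261 bp below 10%, 8461 bp below 50% and 5444.5 bp over 3 CpGs. The cause of these changes was not tested. The main fits did not pair animals by replicate number. Of 84 pairs with the same number 0 had a correlation of deviations above 0.1. Their median was 0.00503 and their highest 0.0639, against -0.00168 and 0.0214 for pairs with different numbers. For 15 of 24 animals the highest mean correlation was with their own number. Whether animals of the same number share a family or a batch was not tested. With the replicate block the members' called windows were 1 for strain, 1 for sires and dams, 2 within B6, 1 within C3 and 2 in F1 animals, and over all windows 96340 in place of 96521 passed the adjusted p for strain. Depth limits the Foxa3 window in C3 parents, with 11.2 reads per CpG.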
